A study of Mus musculus with 2 samples.

Results

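The interferon-inducible GTPases examined here were 10 genes chosen by symbol: the guanylate-binding protein genes Gbp2, Gbp3, Gbp4, Gbp5, Gbp6 and Gbp7, and the immunity-related GTPase genes Igtp, Irgm1, Irgm2 and Iigp1. They were chosen with earlier results of these data known. All 10 were present among the 49492 genes of the deposited count table. The RNA came from colonies or organoids grown from primary mammary basal cells. These cells had been sorted as lin-CD24+CD29hi cells from the glands of adult female wild-type mice. They were grown in 3D in Matrigel drops for 10 days, either without an added cytokine (control) or with recombinant mouse TNF-α at 10 ng/mL. By the study's flow cytometry, control colonies of its co-culture experiment were mostly luminal cells. The study also reports a higher proportion of basal cells in cultures with TNF-α. The medium of both groups held EGF and an insulin, transferrin and selenium supplement. Each group was 1 library, so no value below has a replicate error and no test between the conditions was possible. Intervals given in brackets are exact 95% Clopper-Pearson intervals and cover counting error only. In these bulk samples, more cells of a type and more RNA per cell cannot be told apart.

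Both families are GTP-binding proteins best known from cells exposed to interferons, where they act inside the cell against bacteria, protozoa and viruses. Guanylate-binding proteins (GBPs) are large GTPases related to the dynamins, and they assemble on vacuoles that hold a pathogen or on the pathogen itself. Among the immunity-related GTPases (IRGs), the Irgm proteins and Igtp sit on the cell's own membranes and restrain effectors such as Iigp1, which load onto the pathogen's vacuole and break it. Their genes are typically switched on by transcription factors of the STAT and IRF families, which bind short promoter motifs known as GAS and the interferon-stimulated response element (ISRE).

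The control library held 44462275 counts and the TNF-α library 53487087, and 10 counts were therefore worth 0.225 and 0.187 counts per 1000000 counts (CPM). In both libraries more genes had 2 counts (2172 and 2350) than 1 count (618 and 645). Halving all counts, as would be apt if both read ends were counted, widened the intervals, and the lower bound of every member stayed above a log2 ratio of 1. Intervals and overlaps below are from unhalved counts unless halving is named, and they are too narrow if both ends were counted. The 10 basal markers summed to 12595 CPM in the control and 11784 CPM with TNF-α, and the 10 luminal markers to 4359 and 3507 CPM.

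All 10 GTPase genes were more than 2-fold higher in the TNF-α library, and none was lower. Because the set was chosen with earlier results known, this count describes the set and is no independent test. Of 20771 genes that reached 10 counts in the sum of both libraries, 8.56% were more than 2-fold higher and 6.62% more than 2-fold lower. Of the 15305 genes with at least the 92 summed counts of the least counted member, 4.86% were more than 2-fold higher. The members stood between the 94.6th and the 99.8th percentile of all genes, with a median log2 ratio of 2.25 against 0.0038 for all genes. Of the members, 6 (Gbp2, Gbp3, Gbp4, Gbp5, Gbp6 and Iigp1) were more than 4-fold higher, as were 2.6% of all genes. The summed counts went from 2482 to 14594, or from 55.7 to 273.5 CPM, a 4.91-fold difference [4.71 to 5.13].

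The 6 GBP genes together summed to 28.5 CPM in the control and 189 CPM with TNF-α, 6.62-fold higher [6.24 to 7.02]. Gbp2, which is lipid-anchored and recruited to pathogen vacuoles, had 468 counts (10.5 CPM) in the control and 3015 (56.5 CPM) with TNF-α, a fold of 5.38 [4.88 to 5.94]. Gbp3 had 313 counts (7.02 CPM) and 3890 counts (72.9 CPM), a fold of 10.4 [9.25 to 11.7]. Counting error was small for both, and their intervals were apart.

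Gbp6 had the highest ratio of the members, with an interval that overlapped those of Gbp4 and Iigp1. It had 80 counts (1.80 CPM) in the control and 1607 (30.1 CPM) with TNF-α, a fold of 16.8 [13.4 to 21.3], and 46 of all genes tested had a higher log2 ratio. Of the exon bases of Gbp6, 29.0% also lie in exons of the neighbouring gene model Gm43302, and 90.2% of its 50-base runs occur in another gene's transcripts, so that reads could be split between Gbp6, Gm43302 and Gbp10 in a way that the table does not show. Summed, these 3 genes had 180 and 3429 counts, 15.9-fold higher [13.7 to 18.6].

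Gbp7, a GBP linked to assembly of the phagocyte NADPH oxidase, had the lowest ratio of the GBPs, with an interval that overlapped that of Gbp5. Its counts were 385 (8.64 CPM) and 1291 (24.2 CPM), a fold of 2.80 [2.50 to 3.15]. It shares 637 exon bases with the gene model Gm43802, and the pair summed gave a fold of 2.84 [2.55 to 3.16].

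Gbp4 and Gbp5 were scarce. Gbp4 had 10 counts (0.224 CPM) in the control and 182 (3.41 CPM) with TNF-α, a fold of 15.2 whose interval ran from 8.08 to 32.2. Gbp5, which has been tied to inflammasome activation, had 14 counts (0.314 CPM) and 78 counts (1.46 CPM), a fold of 4.65 [2.61 to 8.90]. With counts halved, the log2 interval of Gbp5 was 1.04 to 3.62 and that of Gbp4 was 2.65 to 5.58, so that their size was known less well than that of the other GBPs.

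The bases just before the annotated starts of Gbp3, Gbp5 and Gbp7 are shown because these genes of 1 cluster, of which Gbp3 had the highest ratio, differ in the number and order of motif matches before the start. They are from RefSeq, build GRCm38.p6, 5′ to 3′, limited to bases outside any exon of the deposited table; the Gbp5 stretch lies within the gene's deposited span, in an intron. Capitals mark matches on either strand to the GAS letters TTCNNNGAA, the ISRE core GAAANNGAAA or the NF-κB consensus.
Gbp3, chr3:142559794-142560025, + strand: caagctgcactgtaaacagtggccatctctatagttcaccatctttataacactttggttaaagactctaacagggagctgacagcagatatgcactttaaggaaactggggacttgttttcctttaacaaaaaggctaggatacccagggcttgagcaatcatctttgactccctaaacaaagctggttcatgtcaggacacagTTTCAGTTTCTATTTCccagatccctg
Gbp5, chr3:142496684-142496899, + strand: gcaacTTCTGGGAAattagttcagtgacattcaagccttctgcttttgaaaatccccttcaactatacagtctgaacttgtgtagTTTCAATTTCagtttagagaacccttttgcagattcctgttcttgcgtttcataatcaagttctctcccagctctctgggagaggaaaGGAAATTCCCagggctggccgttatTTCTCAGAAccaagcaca
Gbp7, chr3:142530086-142530335, + strand: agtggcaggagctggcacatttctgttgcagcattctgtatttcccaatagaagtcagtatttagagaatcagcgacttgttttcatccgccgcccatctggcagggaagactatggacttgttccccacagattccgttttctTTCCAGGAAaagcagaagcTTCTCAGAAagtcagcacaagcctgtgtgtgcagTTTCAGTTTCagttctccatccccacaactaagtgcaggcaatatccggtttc
Gbp3 held a pair of ISRE cores that overlap each other, at -45 to -36 and -39 to -30 from the start. Gbp7, with the smaller ratio, held GAS matches at -106 to -98 and -87 to -79 and an ISRE core at -53 to -44. Gbp5 was the only one of the 7 members with a promoter to search that had a match to the NF-κB consensus, the site class of the transcription factor that TNF-α is known to activate, at -77 to -68; its GAS matches were at -245 to -237 and -52 to -44, and its ISRE core at -165 to -156.

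The 4 IRG genes summed to 27.2 CPM in the control and 84.9 CPM with TNF-α, 3.12-fold higher [2.93 to 3.33]. This fold and that of the 6 GBPs had intervals that did not overlap, and the median log2 ratios were 1.74 and 2.90. The comparison covers the members only, and Irgm1 alone held 798 of the 1212 control counts of these IRGs. Other IRG genes in the members' clusters had log2 ratios from 1.25 (9930111J21Rik2) to 3.80 (Gm12185). The 3 genes of the regulatory class had the lower folds, and the intervals of Irgm1 and Igtp were apart. Irgm1 had 798 counts (17.9 CPM) in the control and 2500 (46.9 CPM) with TNF-α, a fold of 2.62 [2.42 to 2.84]. Irgm2 had 203 counts (4.55 CPM) and 726 counts (13.6 CPM), a fold of 2.99 [2.55 to 3.51]. Igtp, also called Irgm3, had 172 counts (3.86 CPM) and 780 counts (14.6 CPM), a fold of 3.79 [3.21 to 4.49].

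Iigp1, the effector among the 4, stood apart from them. It had 39 counts (0.875 CPM) in the control and 525 (9.84 CPM) with TNF-α, a fold of 11.2 [8.11 to 16.0], above the intervals of Irgm1, Irgm2 and Igtp. Igtp and Irgm2 share 162 exon bases in the deposited table (8.01% of those of Igtp), and summed they gave a fold of 3.35 [2.99 to 3.77].

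The upstream bases of Igtp and Irgm2 (RefSeq, GRCm38.p6, same marking) are shown because the same motif pair stands in both. The Irgm2 stretch lies in an intron of the deposited Irgm2 model, and the Igtp stretch lies before the first exon of either gene.
Igtp, chr11:58199306-58199555, + strand: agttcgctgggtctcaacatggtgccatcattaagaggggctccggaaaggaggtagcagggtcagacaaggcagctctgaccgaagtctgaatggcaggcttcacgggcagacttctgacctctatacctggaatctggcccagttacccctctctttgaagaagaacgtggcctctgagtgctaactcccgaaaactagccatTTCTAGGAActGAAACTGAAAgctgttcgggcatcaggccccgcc
Irgm2, chr11:58214727-58214976, + strand: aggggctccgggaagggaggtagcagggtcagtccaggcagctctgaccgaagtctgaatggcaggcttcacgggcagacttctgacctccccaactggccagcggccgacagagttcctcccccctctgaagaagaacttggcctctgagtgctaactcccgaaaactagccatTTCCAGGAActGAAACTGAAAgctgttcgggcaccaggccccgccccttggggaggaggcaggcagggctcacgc
In both, a GAS match was followed after 2 bases by an ISRE core, at -45 to -25 for Igtp and at -75 to -55 for Irgm2. Lined up on the GAS match, the stretches had the same base at 83 of 90 positions (92.2%) from 60 bases before the match to 30 after its first base, and at 184 of 270 (68.1%) over the whole overlap of the promoters, so that they are not independent examples. This spacing, looked for after it was seen in Igtp, was found in 5 of 32851 promoters (0.0152%), and these belonged to Igtp, Irgm2 and the IRG genes Gm12185, Tgtp1 and Tgtp2.

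Promoters of 300 bases, from 250 before to 50 after a start, were matched for 7 members (8 promoters, of which 2 were of Gbp3), and Gbp4, Gbp6 and Iigp1 were not matched. The ISRE core was in a promoter of all 7 members and in 3.44% of all promoters. GAS was in 4 members (Gbp5, Gbp7, Igtp and Irgm2) and in 8.3% of all promoters, and both motifs together were in 0.454% of all. The NF-κB consensus was in 1 member and in 4.51% of all promoters. In Gbp2 the ISRE core was at -59 to -50, and in Irgm1 overlapping cores ran from -30 to -15. These are matches of letters and do not show binding.

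**Figure D1:**
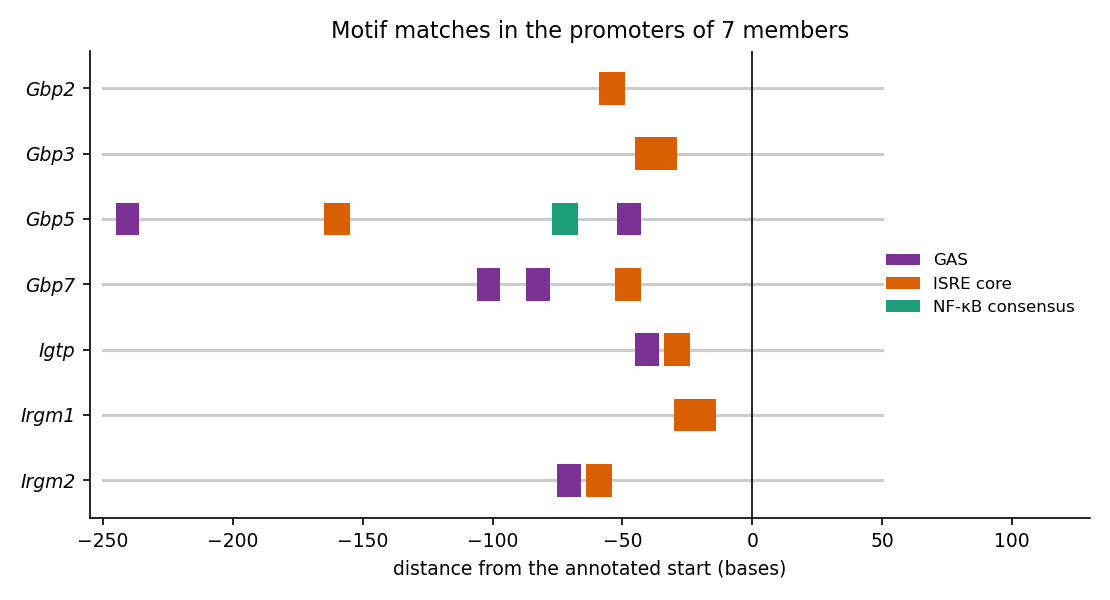
Positions of GAS, ISRE core and NF-κB consensus matches on either strand in the promoters of 7 members; the x axis is the distance in bases from the annotated start and each grey line spans the 300 bases searched. An ISRE core lies between -64 and -15 in 6 of the 7 and farther upstream in Gbp5.

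Ordered by the log2 ratio of TNF-α over control, adjacent members had overlapping intervals at every step but that from Gbp3 to Gbp2. Above this step were Gbp6 (4.04), Gbp4 (3.70), Iigp1 (3.43) and Gbp3 (3.37), and neighbours in this order did not differ beyond counting error. Below it, the order began with Gbp2 (2.42), Gbp5 (2.08) and Igtp (1.91) and ended with Irgm2 (1.57), Gbp7 (1.48) and Irgm1 (1.39), again with overlapping intervals between neighbours. Over all 45 pairs of members, intervals of the unhalved counts overlapped in 16 and were apart in 29. The wide interval of Gbp5 (1.39 to 3.15) also reached those of Gbp4 and Iigp1, so the step does not part every gene above it from every gene below it. With counts halved, that of Gbp5 (1.04 to 3.62) also reached those of Gbp3 (3.14 to 3.63) and Gbp6 (3.61 to 4.57). Gbp5 was then parted from no gene above the step. The genes above the step were both GBPs and an IRG, of chromosomes 3, 5 and 18.

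A more than 2-fold difference together with a binomial test on the reads (Benjamini-Hochberg adjusted p under 0.05), which compares these libraries and not the conditions, held for all 10 members and for 7.06% of all genes. When a coefficient of variation of 0.4 between cultures was assumed in edgeR's exact test, 4 members passed (Gbp3, Gbp4, Gbp6 and Iigp1), against 0.438% of all genes. These 4 had the highest ratios. The variation between cultures was not measured.

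Levels were compared between genes as CPM per kilobase of exon. In the control, Gbp2 had the highest level (4.17), above Irgm1 (3.08), and these were apart from each other and from Gbp3 (2.15). Gbp3, Igtp (1.91), Gbp7 (1.54) and Irgm2 (1.23) followed, each with an interval that overlapped the next. Gbp6 (0.301) and Iigp1 (0.280) did not differ beyond counting error, and Gbp5 (0.0473) and Gbp4 (0.0299) were lowest. Every level was thus above 0 in the control culture, over a wide range.

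With TNF-α, Gbp2 (22.5) and Gbp3 (22.3) did not differ in level beyond counting error and were above all others. Irgm1 (8.06) and Igtp (7.23) overlapped and came next, followed by Gbp6 (5.06), Gbp7 (4.31), Irgm2 (3.69), Iigp1 (3.15), Gbp4 (0.455) and Gbp5 (0.220); of these, Irgm2 and Iigp1 overlapped and the others were apart. Gbp6 passed Gbp7 and Irgm2, and Gbp4, whose interval overlapped that of Gbp5 in the control, was above it with TNF-α. The level of Gbp6 depends on how reads that could be split with Gm43302 and Gbp10 were assigned, so its place is uncertain. By the longest coding transcript in place of the summed exon length, a setting added after the data were seen, Irgm1 was first in the control (7.93, against 4.17 for Gbp2) and Gbp3 first with TNF-α (27.2, against 22.5 for Gbp2). By that length Irgm1 (20.7) was far above Igtp (7.23) with TNF-α, and Gbp6 (11.6) was above Igtp.

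The make-up of the 6 GBP and of the 4 IRG members shifted with these levels. Shares are of the members only and leave out other genes of each family, such as Gbp9 (0.117 and 2.26 CPM per kilobase). As a share of the summed GBP level, Gbp2 went from 50.6% to 41.0% and Gbp3 from 26.1% to 40.7%. Gbp7 went from 18.7% to 7.86% and Gbp6 from 3.66% to 9.23%, while Gbp4 and Gbp5 were each under 1% in both libraries. As a share of the IRG level, Irgm1 and Irgm2 went from 47.4% to 36.4% and from 19.0% to 16.7%. Igtp, of the same regulatory class, went the other way, from 29.3% to 32.7%, and Iigp1 went from 4.31% to 14.2%. No counting interval was computed for the shares, and the ratio intervals of Igtp and Irgm2 overlapped. The opposite directions of Igtp and Irgm2 were therefore not shown beyond counting error. These shares depend on the length used, and that of Gbp6 also on how reads shared with its neighbours were assigned. By the longest coding transcript, Gbp6 went from 7.52% to 17.3% and Iigp1 from 2.46% to 9.01%, Irgm1 from 69.5% to 59.3% and Igtp from 16.7% to 20.7%, while Gbp5 was at 1.12% in the control and Gbp4 at 1.13% with TNF-α. The direction of each of these changes was the same by either length.

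**Figure D2:**
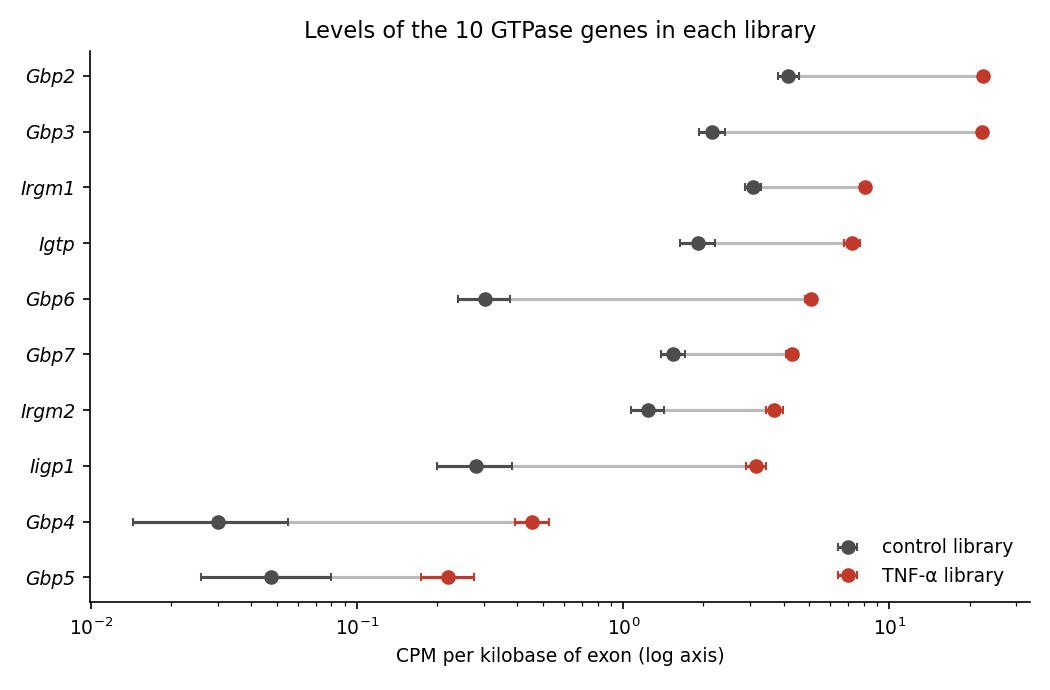
Level of each member in CPM per kilobase of exon (log axis) in the control library (grey) and the TNF-α library (red); bars are 95% intervals of counting error and each group is 1 library. Every red point lies to the right of its grey point, and Gbp4 and Gbp5 are lowest in both libraries.

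The rest of the family was examined in a list of 28 other genes of these and related GTPase families, which includes annotated pseudogenes and genes not known as interferon-inducible. Of these, 24 were in the table and 20 had at least 10 counts. In the TNF-α library 17 of the 20 were more than 2-fold higher, and 1 was lower, with a median log2 ratio of 2.47, beside 8.56% of all genes higher. Several of the 17 reached 10 counts only through the TNF-α library, so this count follows in part from the filter. Among the other GBPs, Gbp9 had 27 and 625 counts (log2 ratio 4.18), Gbp10 had 16 and 274 (3.69), and Gbp8 had 3 and 96 (4.09, interval 3.15 to 7.04). They are the neighbours of Gbp4 and Gbp6 and had log2 ratios near theirs. Of the 50-base runs of Gbp10, 82.5% are found in other genes' transcripts, most of them in Gbp6. For Gbp8 and Gbp9 these shares were 21.2% and 9.56%, mostly with Gbp4. Reads could thus be shared between these genes, and the likeness of their ratios is uncertain.

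Of the IRG effectors, Tgtp1 had 17 and 192 counts (log2 ratio 3.11) and Tgtp2 had 30 and 112 (1.58). These genes are near-identical copies, with 91.4% and 90.6% of their 50-base runs found in other genes' transcripts, so their separate ratios are uncertain. Gm12250, the Irgb10 gene, which GENCODE M21 lists as a processed pseudogene, had 2 and 27 counts, a ratio of 11.3 [2.83 to 97.8]. Gm4841 had 0 counts in the control and 26 with TNF-α, at least 7.24-fold higher against a floor of 3 counts. Gm12185 (7 and 145 counts, log2 ratio 3.80), Gm4951 (8 and 121, 3.39), F830016B08Rik (6 and 43, 2.27) and Gm5431 (3 and 16, 1.66) were all low in the control. The tandem genes 9930111J21Rik1 (30 and 108 counts, 1.53) and 9930111J21Rik2 (142 and 408, 1.25) lie in the cluster of Irgm1 (1.39) and had log2 ratios near it. The cluster as a whole did not share a ratio, since its other listed genes ran from Tgtp2 (1.58) and Gm5431 (1.66) to Tgtp1 (3.11) and Gm12185 (3.80). Of the 50-base runs of the tandem genes, 79.3% and 52.6% are found in other genes' transcripts, so their separate ratios are uncertain too.

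Outside these groups, the very large GTPase genes Gvin1 (50 and 469 counts, log2 ratio 2.92) and Gm4070 (31 and 305, 2.97) were higher, and 99.2% and 98.9% of their 50-base runs are found elsewhere. The antiviral dynamin-like genes Mx1 (139 and 644 counts, 1.94) and Mx2 (41 and 217, 2.10) were higher as well. The annotated pseudogene Gm8995 (22 and 42 counts, 0.63) did not reach 2-fold. Irgq, an IRG-like gene not known as interferon-inducible, had 1121 and 828 counts (-0.70), and the annotated pseudogene Gm1966 had 12 and 4 (-1.42).

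Gbp2b and Gbp11 had 0 counts in the control, and 2 and 4 with TNF-α. Irgc1 had 2 counts in the control and 0 with TNF-α, and Gm8989 had 0 in both. None of these 4 reached 10 counts.

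Dynamin-family GTPases that are not interferon-inducible were listed for comparison. None of the 10 atlastin, dynamin, mitofusin and Opa1 genes passed 2-fold in either direction, with a median log2 ratio of -0.10 and a range from -0.45 (Mfn2) to 0.24 (Atl2). Most genes did not pass it either, with 8.56% of all genes higher and 6.62% lower.

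**Figure D3:**
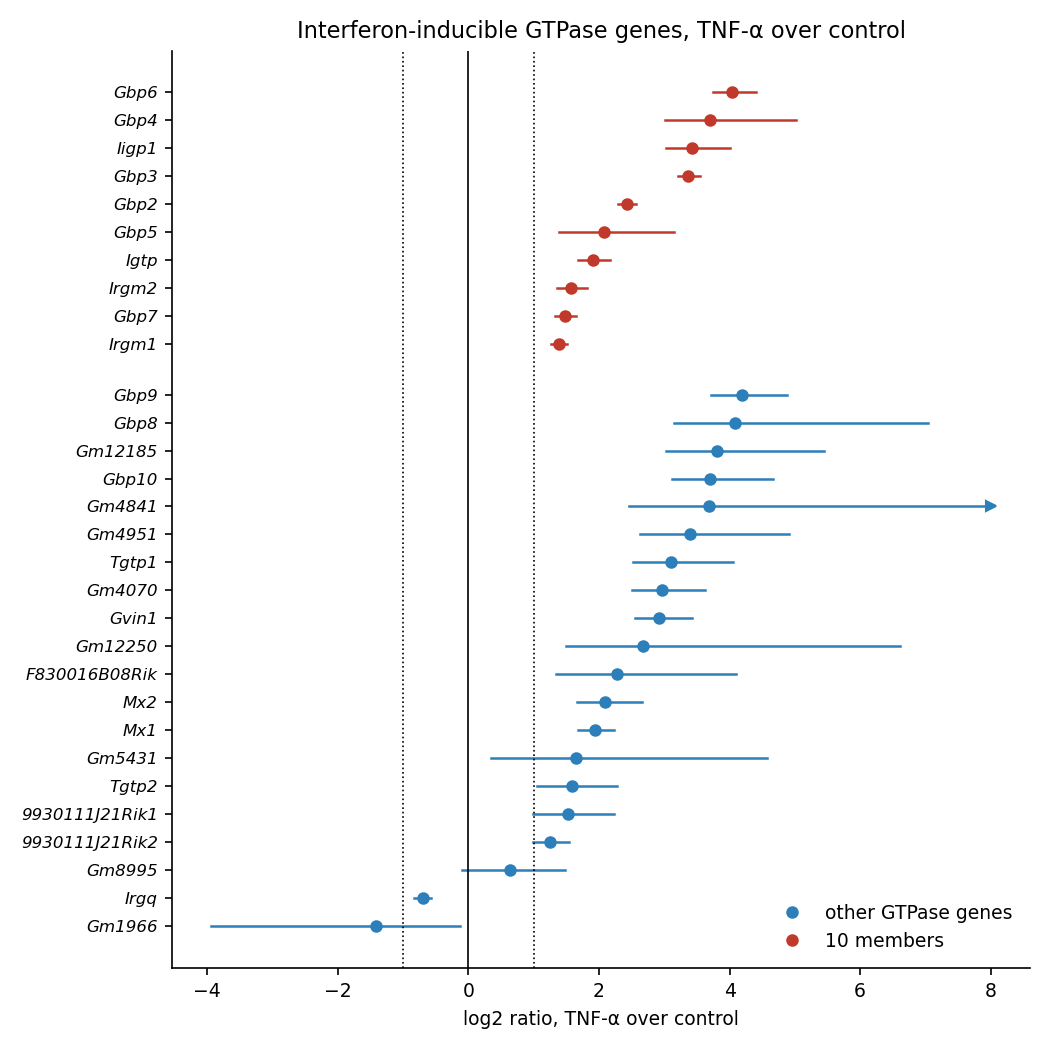
log2 ratio of TNF-α over control for the 10 members (red) and the 20 other GTPase genes of the list with at least 10 counts (blue); bars are 95% intervals of counting error, the arrow marks an interval with no upper bound, and dotted lines mark 2-fold. All members and 17 of the 20 others lie to the right of the upper dotted line.

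The members lie in 5 tandem clusters, given on GRCm38. Gbp5, Gbp7, Gbp3 and Gbp2 lie within 144 kb at chr3:142493978-142638008, on the + strand, with Gbp2b. Gbp4 and Gbp6 lie on the - strand of chromosome 5 with Gbp8, Gbp9, Gbp10 and Gbp11, within 332 kb at chr5:105014150-105346472. Irgm1 lies with 6 other GTPase genes at chr11:48861968-49064206, Igtp and Irgm2 with Gm12250 at chr11:58187739-58222782, and Iigp1 with 3 others on chromosome 18. Every GTPase gene tested in these clusters was more than 2-fold higher, with 4 of 4 on chromosome 3, 5 of 5 on chromosome 5, 7 of 7 beside Irgm1, 3 of 3 beside Igtp and 4 of 4 beside Iigp1. Over all genes tested, 8.56% were more than 2-fold higher. Several of these GTPase genes, such as Gm4841 (0 and 26 counts) and Gm5431 (3 and 16), reached 10 counts only through the TNF-α library. These counts therefore follow in part from the filter.

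Of the 44 other genes tested in the clusters or within 250 kb of them, 8 were more than 2-fold higher (18.2%, beside 8.56% of all genes) and 1 was lower. On chromosome 3 the 2 higher ones were Gm43802 (65 and 238 counts, log2 ratio 1.59), which overlaps exons of Gbp7, and Mir6381 (6 and 64, 2.82), which lies on the opposite strand of a Gbp2 exon; since it is not known whether strand was used, their reads cannot be told apart from those of the GBPs. On chromosome 5, Gm43302 (84 and 1548 counts, 3.92) overlaps Gbp6 and Gbp10, and Gm43819 had 2 and 14 counts. The other 4 were near Irgm1. One of them, Ifi47 (11 and 178 counts, 3.55), encodes an IRG that the list had left out, and it is named here after its values were seen.

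The remaining higher neighbours of Irgm1 were Olfr56, Psme2b and Gm12183 (log2 ratio 1.07). Olfr56, an odorant receptor gene, had 2 and 165 counts (log2 ratio 5.19, interval 4.23 to 9.16). Its deposited span (chr11:48978889-49135387) holds the whole of Ifi47 on the same strand. Exon bases shared by Olfr56 were not examined, so its reads may not be its own. Psme2b, a copy of a proteasome activator gene (152 and 375 counts, 1.03), shares exon bases with 9930111J21Rik1. The lower one was Btnl9, with 8 and 2 counts. Around Igtp and Irgm2, none of 11 neighbours passed 2-fold (-0.60 to 0.52), and none of 4 did around Iigp1 (-0.01 to 0.92).

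**Figure D4:**
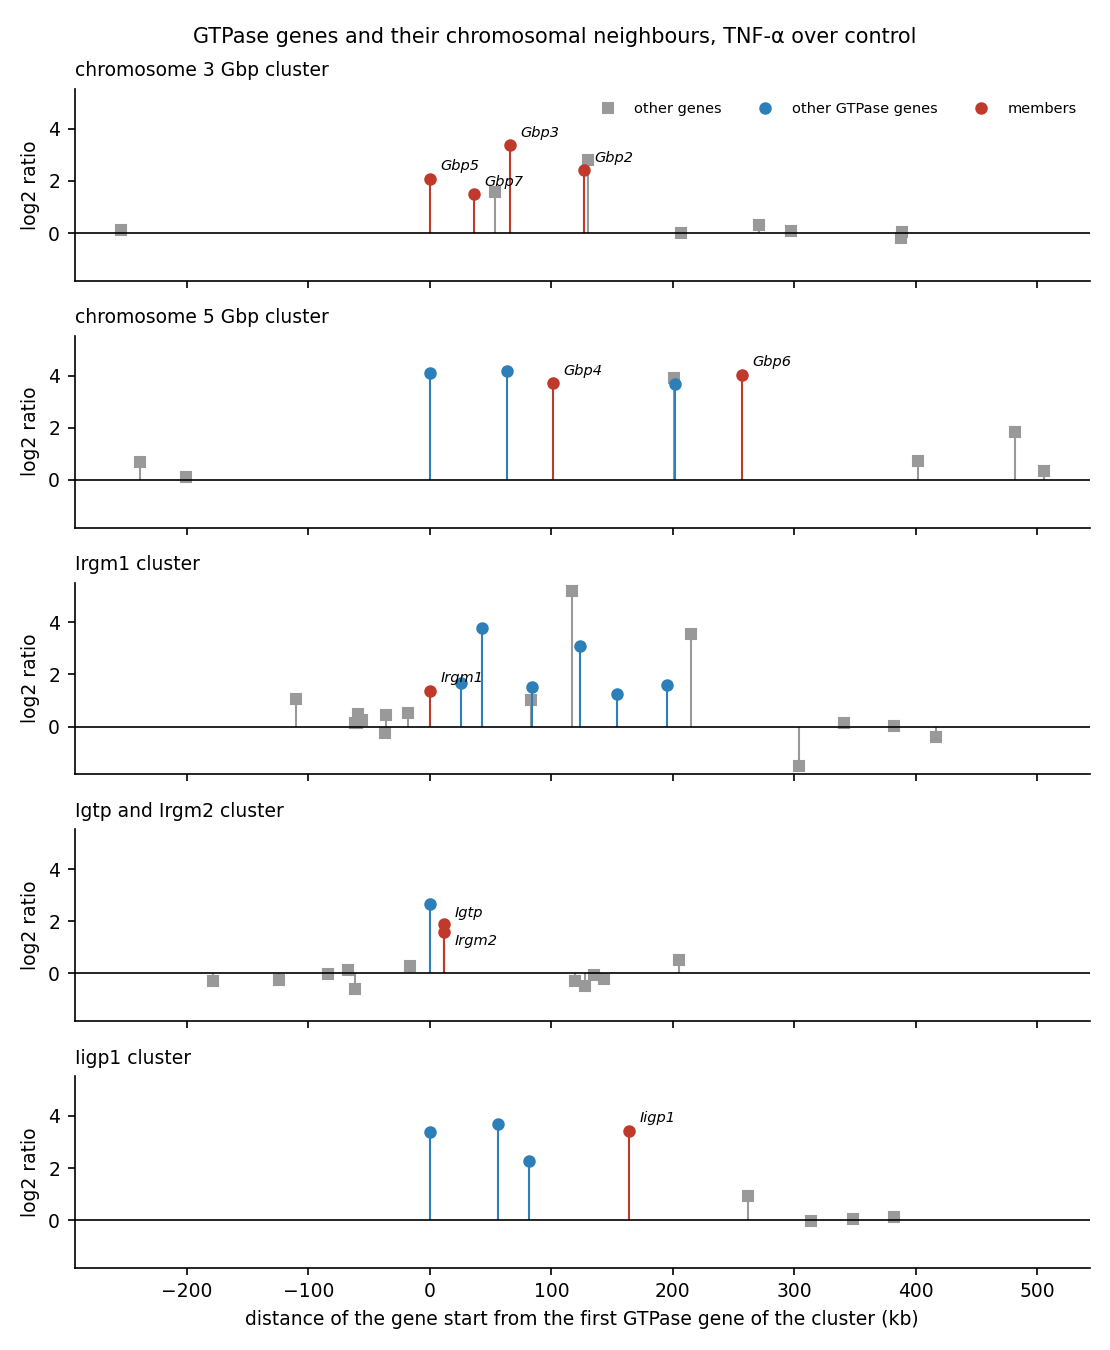
log2 ratio of TNF-α over control against the distance in kb of each gene's start from the first GTPase gene of its cluster, for members (red), other GTPase genes (blue) and all other genes with at least 10 counts within 250 kb (grey squares). The coloured points lie above 1, and most grey points lie near 0.

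The genes that are known to act upstream of the GBPs and IRGs were examined in the same libraries. Few interferon transcripts were detected at this depth. Of 21 interferon genes in the table, 20 had 3 or fewer counts in both libraries, and all 21 summed to 6 counts in the control and 8 with TNF-α. Ifng and Ifnb1, the genes of interferon-γ and interferon-β, had 0 counts in both, which allows, at 3 counts, up to 0.0675 CPM in the control and 0.0561 CPM with TNF-α. The highest ligand gene, Ifnz, had 4 and 6 counts. Interferon made before the harvest, or by cells not sampled, was not measured.

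The 6 interferon receptor genes were all detected in both libraries and none passed 2-fold (8.56% of all genes were higher), with a median log2 ratio of 0.48. Ifngr1, a chain of the interferon-γ receptor, had 1434 and 3335 counts (log2 ratio 0.96), and its partner Ifngr2 had 1386 and 2808 (0.76). The type I receptor genes Ifnar1 (1065 and 1778 counts, 0.48) and Ifnar2 (1121 and 1700, 0.34) had smaller ratios.

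Of 14 JAK-STAT and IRF factors, 4 were more than 2-fold higher, beside 8.56% of all genes, and none was lower. Their median log2 ratio was 0.51. Irf1, an activator of GBP genes, had 718 and 2923 counts (log2 ratio 1.76), and Irf7, an amplifier of type I interferon responses, had 198 and 1210 (2.34). Nlrc5, the transactivator of class I genes (182 and 764 counts, 1.80), and Irf8 (10 and 30, 1.19) were the others past 2-fold. The genes of an ISRE-binding complex, Stat2 (617 and 1338 counts, 0.86) and Irf9 (1586 and 2636, 0.47), did not reach 2-fold, and neither did the kinases Jak1 (7331 and 9557, 0.12), Jak2 (2858 and 5500, 0.68) and Tyk2 (-0.07).

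Of 8 genes in a list of Isg15 and feedback inhibitors of interferon signalling, 2 were more than 2-fold higher, beside 8.56% of all genes. These were Isg15 (172 and 1299 counts, log2 ratio 2.64) and Usp18 (70 and 374, 2.13). Socs3 (3956 and 2992 counts, -0.66) was the lowest of the list, and Socs1, which blocks JAK kinases, had 14 and 13 counts (-0.32). The median of the list was 0.07.

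Of 7 TNF receptor and NF-κB subunit genes, 3 were more than 2-fold higher, beside 8.56% of all genes. Tnfrsf1b, the gene of TNF receptor 2, had 18 and 207 counts (log2 ratio 3.14), while Tnfrsf1a, that of the broadly expressed receptor 1, had 1729 and 1623 (-0.35). The subunits Relb (585 and 1937 counts, 1.46) and Nfkb2 (2294 and 6624, 1.27), which act in the non-canonical pathway, passed 2-fold. The canonical subunits Nfkb1 (5712 and 7231 counts, 0.08) and Rela (2877 and 3204, -0.10) did not.

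The partners with which GBPs and IRGs are known to work at a vacuole mostly did not pass 2-fold. Neither did most genes, with 8.56% of all genes higher and 6.62% lower. None of 11 genes of the ATG8 conjugation machinery, which helps direct IRGs and GBPs to vacuoles, did so, with a median log2 ratio of -0.01 and a range from -0.75 (Map1lc3a) to 0.09 (Atg7). None of 6 prenylation enzyme genes, which anchor some GBPs in membranes, did so, with values from -0.19 (Fnta) to 0.33 (Pggt1b). Of 8 genes for vacuole ubiquitin and its adaptors, 1 was higher, the ubiquitin ligase gene Rnf213 (3572 and 12410 counts, 1.54), and the lowest was Calcoco2 (6 and 6 counts, -0.20).

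Among 7 tested inflammasome effector genes, 2 were more than 2-fold higher, beside 8.56% of all genes. Casp4, which encodes the caspase that senses lipopolysaccharide with the help of GBPs, had 94 and 573 counts (log2 ratio 2.33), and Gsdmd, the pore-forming gasdermin it cleaves, had 61 and 425 (2.51). Il1b was more than 2-fold lower by ratio at 13 and 6 counts (-1.12, interval -3.06 to 0.12, which includes 0).

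**Figure D5:**
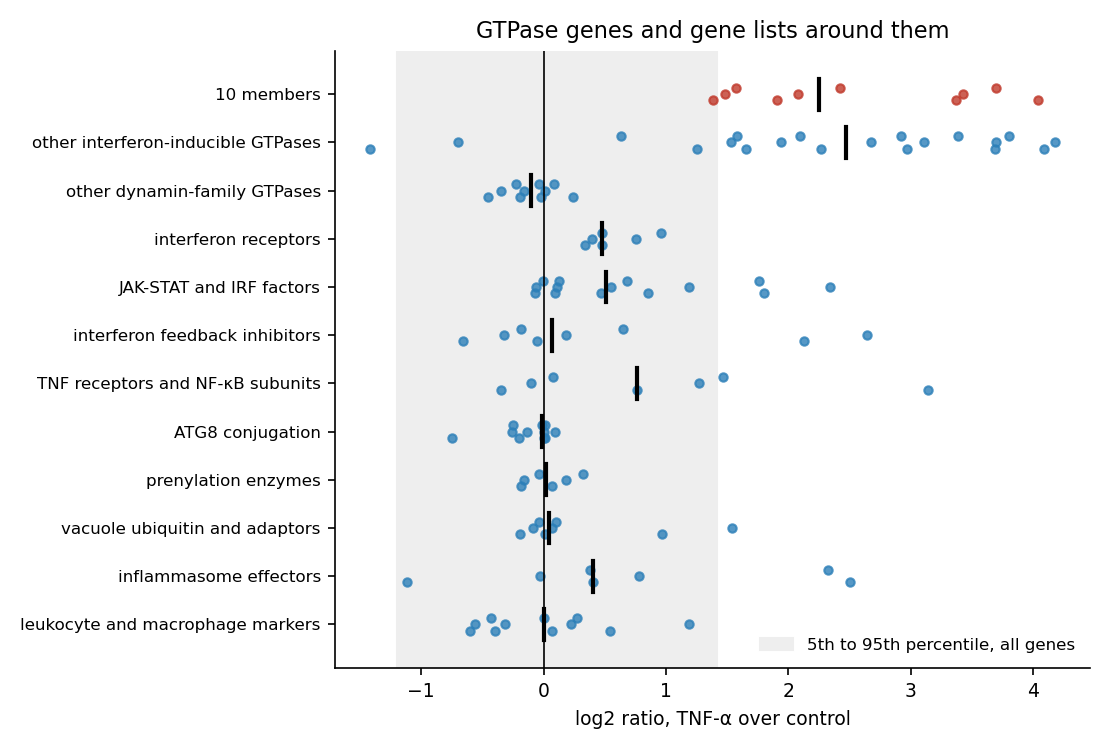
log2 ratio of TNF-α over control for each tested gene of 12 lists, 1 point per gene, with the list median as a black bar; the grey band holds the 5th to 95th percentile of all genes (-1.20 to 1.42). The members and the other interferon-inducible GTPases lie mostly to the right of the band, and the dynamin, ATG8 and prenylation lists lie within it.

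Since GBPs and IRGs are abundant in activated leukocytes, markers of other cells are given beside these values. Of 18 leukocyte and macrophage markers, 11 had at least 10 counts, and the 18 summed to 24.0 CPM in the control and 31.7 CPM with TNF-α, 1.32-fold higher [1.22 to 1.43]. Of these 11, 1 passed 2-fold, Cd14 (276 and 756 counts, log2 ratio 1.19), which is near the 8.56% of all genes that were higher. Without Cd14, a choice made after its value was seen, the sum was 17.8 and 17.6 CPM. Ptprc, which encodes the pan-leukocyte CD45, had 26 and 38 counts, the macrophage gene Adgre1 had 0 and 2, the T cell gene Cd3e and the NK cell gene Nkg7 had 0 in both libraries, and Cd79a was lowest by ratio (-0.60). The markers without Cd14 held 793 and 937 counts, of which Lcp1 alone had 382 and 535, so this sum says little about the other markers. Whether leukocytes had a part in the members' 4.91-fold higher sum was not tested.

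The 6 endothelial markers summed to 7.43 and 6.78 CPM, and of the 5 tested 1 was lower (Cldn5, 16 and 2 counts) and Cdh5 was highest (log2 ratio 0.22). The 6 fibroblast markers summed to 499 and 486 CPM, with Dcn higher (1.39) and Col3a1 lowest (-0.66). Of the 10 basal markers, Oxtr was lower (-1.19) and Krt17 was highest (0.31), with a median of -0.03. Of the 10 luminal markers 3 were lower, and the list ran from Pgr (-1.54) to Epcam (0.29), with a median of -0.89. For comparison, 8.56% of all genes were more than 2-fold higher and 6.62% lower. The part of cell composition in the GTPase ratios was not tested.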

How the data were processed

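The file deposited by the authors gives unnormalized counts of reads for each gene, along with exon coordinates, strand and summed exon length. Libraries were made from total RNA with a SMARTER mRNA-Seq kit and sequenced on a HiSeq X 10 (per the labels and the study's methods), and the submitters' processing notes name GRCm38 and mm10. Aligner, counter and use of strand were not given in the sources used here. Of 47240 gene names shared with GENCODE M21, 90.9% had the same coordinates, as had 9 of the 10 members.

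TMM scaling was done in edgeR 4.0.16 under R 4.3.3, and log2 ratios of CPM used a prior count of 2. Genes with at least 10 summed counts were considered, and a gene was called higher or lower past 2-fold, with no test, since each group was 1 library. Counting intervals were exact 95% Clopper-Pearson intervals of the share of a gene's counts in the TNF-α library, turned into ratios. The floor was 3 counts per library. The scripts (Python 3.11.15) were tested on simulated data. Named genes were all members, the tested other GTPases, the highest and lowest gene of each list, a fixed set of receptors and factors (1 of which is not reported here), cluster neighbours, and the 5 genes nearest the members' median. Nlrc5, Irf8, Usp18, Relb, Nfkb2, Casp4 and genes at 0 or near it were named after their values were seen. The members and lists were chosen with earlier results of these data known. Alternatives were other scalings (total counts, DESeq2 version 1.42.0 size factors, upper quartile), filters, prior counts, folds, halved counts, a read test and edgeR's exact test. Promoters were from RefSeq (GRCm38.p6).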

Additional observations from a re-analysis of the deposited data

How the results depend on the processing

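The log2 ratio of every member kept its direction and stayed past 2-fold under each of the scalings, filters, prior counts and halved counts tried. The ratio moved most for the least counted genes, from 3.43 to 3.87 for Gbp4 and from 1.91 to 2.18 for Gbp5, and the members' median ranged from 2.16 to 2.30. The number of all genes more than 2-fold higher depended on the filter, with 2679 without a filter on low counts and 836 with at least 1 CPM required, against 1777. Past 1.5-fold there were 3210 genes. Past 4-fold there were 540 genes and 6 members. With an assumed coefficient of variation of 0.4 in edgeR's exact test, 91 genes and 4 members remained. Levels by the longest coding transcript, added after the data were seen, moved 9 of 20 level values. No paired analysis was possible because each group had 1 library. The depth limited Gbp4 and Gbp5 most, with 10 and 14 control counts, and nothing here measures the spread between cultures.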

Other observations

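Among genes with at least 1000 summed counts outside the members and lists, those with log2 ratios nearest the members' median (2.25) were B2m, Parp14, H2-Q4, Gm11407 and Mir675. B2m, the light chain of class I major histocompatibility molecules, had 1333 counts in the control and 7707 with TNF-α (2.27). H2-Q4, a class I heavy chain gene, had 781 and 4342 counts (2.21). Parp14, an interferon-inducible ADP-ribosyltransferase gene, had 1283 and 7235 counts (2.23). Gm11407 had 200 and 1182 counts (2.29), and Mir675, a microRNA gene within H19, had 486 and 2696 (2.21). The likeness is in 1 ratio over 2 libraries, so it is no evidence of a shared pattern across conditions.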
